A study of Takifugu rubripes with 9 samples.

Results

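miR-199 and miR-214 are microRNAs (miRNAs), single-stranded RNAs of about the length of the reads described here that guide silencing complexes to messenger RNAs. Their rows in the miRNA tables of torafugu (*Takifugu rubripes*) were taken by name, with any letter, any match type and any species entry. This gave 5 of the 377 miRNA names in the tables, mir-199, mir-199a, mir-199b, mir-199c and mir-214, with 237 of the 8194 distinct sequences. They held 151803 of 5232809 annotated reads, or 2.90%. Small RNAs of wild type adult fish were sequenced with 1 library per tissue, so no value has a replicate error. The 8 libraries used were slow muscle, heart, eye, brain, intestine and liver (somatic) and ovaries and testes (gonads), all untreated, and fast muscle was not analysed here. The tissues came from a pair of adult fish, and each tissue is a mixture of cell types. Whether a somatic library pooled both fish is not given in the sources used here. Ovaries and testes come from different fish, so a difference between them cannot be told apart from a difference between animals. Intervals below are 95% intervals (Wilson for a share or level, exact Clopper-Pearson for a ratio of reads). They measure the error of counting alone, since reads were amplified and carry no molecular identifiers.

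Each hairpin precursor can give a 5p and a 3p miRNA, one from either strand of its stem. A miRNA pairs with its targets mainly through the seed, bases 2 to 8, so a shift of the 5′ start by 1 nt gives another seed. In vertebrates the miR-199 and miR-214 hairpins lie on transcripts that run antisense within dynamin genes, and in mouse the transcript over miR-199 and miR-214 in Dnm3 is known from mesenchyme and skeletal development. In zebrafish, miR-214 is known for tuning Hedgehog signalling in muscle precursors, and in mammals miR-199-3p is known as an abundant miRNA of healthy liver. In the RefSeq annotation of assembly fTakRub1.2 the torafugu mir199-1 and mir214 genes are neighbours within the span of dnm3a, mir199-2 lies within dnm1a, and mir199-3 lies within dnm2a. The miRNA gene next to mir199-2 on one side is mir126. The deposited tables name no genome build, so that annotation was used for names and neighbours only.

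The sequences that the results turn on are printed 5′ to 3′ as DNA letters, as deposited, with the seed in capitals. The first pair shows the change of 5′ start in miR-199-5p, and the third is a sequence that is recorded for hairpin mir-199-1 alone.
miR-199-5p, most abundant form: cCCAGTGTtcagactacctgt
miR-199-5p, 1 nt upstream: gCCCAGTGttcagactacctgt
miR-199-5p, 2 nt upstream: aTCCCAGTgttcagactacctgt
The next set shows the main miR-199-3p form and the forms with 1 more base, which differ in their last letter.
miR-199-3p, most abundant form: aCAGTAGTctgcacattggtta
miR-199-3p, longer by A: aCAGTAGTctgcacattggttaa
miR-199-3p, longer by T: aCAGTAGTctgcacattggttat
The last set shows miR-214-3p, whose start and end both vary.
miR-214-3p, most abundant form: aCAGCAGGcacagacaggcag
miR-214-3p, longer by A: aCAGCAGGcacagacaggcaga
miR-214-3p, longer by T: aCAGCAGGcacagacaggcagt
miR-214-3p, 1 nt upstream: tACAGCAGgcacagacaggcag
The seeds that were looked up were nearly private to these arms. Those of miR-214-3p 1 nt upstream and of miR-199-5p 2 nt upstream were not looked up. CCAGTGT and CAGTAGT were found in 0 reads of other miRNA names, the upstream seed CCCAGTG in 1 read, and CAGCAGG in 14 reads, all named miR-24.

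The names hide most of the miR-199-3p signal. Of the member reads, 60.5% were recorded as matching a precursor only, against 4.85% for all other names. The most abundant miR-199-3p sequence, with 61268 reads, was among them, because it was recorded under the torafugu hairpins without a mature 3p form. Sequences of this kind were therefore placed on an arm where they overlapped a mature sequence of the same miRNA number by at least 14 nt. This gave miR-199-3p 91152 reads, of which 98.8% were precursor-only. miR-199-5p held 48918 reads and miR-214-3p held 11607, with 2.51% and 3.71% precursor-only. No miR-214-5p was recorded as mature in any library, and only 10 miR-214 reads lay outside the 3p arm, so a miR-214 arm share could not be given. The lettered names added little. Of all miR-199 reads, mir-199c held 0.720%, mir-199a 0.701% and mir-199b 0.285%, and the rest were under mir-199.

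Per 18–25 nt read, slow muscle and liver were the tissues richest in these miRNAs and testes the poorest. The 3 arms together reached 19976 RPM (reads per 1000000 reads of 18–25 nt) in slow muscle and 20138 RPM in liver. They stood at 12417 RPM in heart, 8952 RPM in eye, 5499 RPM in intestine, 4342 RPM in ovaries, 1801 RPM in brain and 463 RPM in testes. Of the annotated reads, members made up 5.55% in liver (interval 5.49 to 5.62), 5.31% in slow muscle (5.25 to 5.36) and 0.518% in brain (0.504 to 0.533). On that scale ovaries stood at 3.85%, heart at 3.55% and testes at 1.81%, and brain was the poorest. Tissue identity was checked with marker miRNAs. miR-122, the hepatocyte miRNA, was highest in liver, miR-9 and miR-128 in brain, and miR-1, miR-133 and miR-206 in slow muscle. The muscle marker miR-499 was highest in heart, at 8833 RPM against 4111 RPM in slow muscle. miR-192, miR-194 and miR-215 were highest in intestine, miR-204, miR-184 and miR-183 in eye and miR-202 in ovaries. Neuronal miR-124 was highest in eye. Slow muscle also held markers of other tissues. All 9 markers of intestine, eye and epithelium were higher there than in heart, with summed levels of 4829 against 48.4 RPM for intestine (136168 RPM in the intestine library), 2179 against 193 RPM for eye (42611 RPM in eye) and 1781 against 262 RPM for epithelium (34279.9 RPM in intestine). Markers of blood and vessels went the other way and were higher in heart than in slow muscle. Their summed levels were 31566 against 9690 RPM for red blood cells, 4673 against 1505 RPM for leukocytes and 57432 against 36602 RPM for endothelium. The neuron markers were mixed. Of the 3, 2 were higher in slow muscle, but miR-128 was higher in heart (863 against 256 RPM), as was their sum (968 against 409 RPM). miR-122 was 7.54 RPM in heart and 24.9 RPM in slow muscle. Liver held 28598 RPM of the intestine markers. The part of these other tissues and cells in the levels of the members was not tested. The intestine library had the most annotated reads (1207961) and the testis library the fewest (54540), and 3 reads, taken as the smallest detectable number, stood for 0.630 to 2.49 RPM.

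miR-199-3p, the arm known from mammalian liver, was led by slow muscle at 14593 RPM (28089 reads). Liver followed at 8846 RPM, heart at 8462 RPM, eye at 6477 RPM, intestine at 3958 RPM, brain at 1181 RPM, ovaries at 1106 RPM and testes at 68.6 RPM (145 reads). Every neighbouring pair in this order was apart beyond counting error, with liver over heart (ratio 1.05, interval 1.02 to 1.07) and brain over ovaries (1.07, 1.02 to 1.12) the narrowest steps. The step of liver over heart depended on the denominator. It reversed with the 1–35 nt total (heart 6680, liver 5576) and with TMM scaling (heart 6381, liver 5175). Brain over ovaries reversed with annotated reads (3385 against 9793) and with TMM (774 against 2523). Slow muscle stood 213-fold above testes (181 to 252). miR-199-3p was the 8th most abundant of 169 miRNA arms in slow muscle and the 34th of 120 in testes.

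miR-199-5p had another order, with liver alone at the top. It reached 11025 RPM in liver (13279 reads), 3754 RPM in slow muscle, 2807 RPM in heart, 2741 RPM in ovaries, 1915 RPM in eye, 1000.2 RPM in intestine, 537 RPM in brain and 369 RPM in testes. Liver was 2.94 times the next library (2.85 to 3.02), and only heart and ovaries were not apart beyond counting error (ratio 1.02, 0.995 to 1.05). In ovaries it was the 5th most abundant of 148 arms.

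miR-214-3p was the scarcest arm and followed the muscles. Slow muscle held 1629 RPM, heart 1148 RPM, eye 560.0 RPM, intestine 540.2 RPM, ovaries 495 RPM, liver 267 RPM, brain 83.3 RPM and testes 25.5 RPM (54 reads). Eye and intestine did not differ beyond counting error (ratio 1.04, 0.952 to 1.13). Liver, at or next to the top for both miR-199 arms, was the sixth of 8 here.

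**Figure D1:**
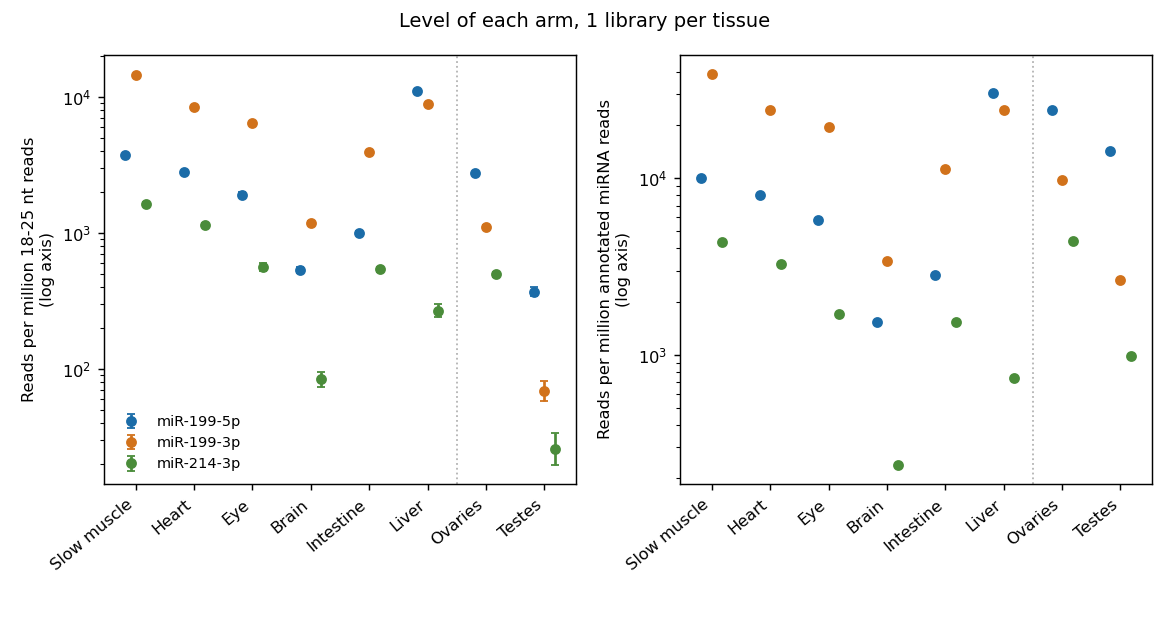
Level of miR-199-5p, miR-199-3p and miR-214-3p in each library, in RPM with 95% Wilson intervals (left) and in reads per 1000000 annotated miRNA reads (right), both on log axes, with the gonads right of the dotted line. In liver miR-199-5p (11025 RPM) sits above miR-199-3p (8846 RPM), as in both gonads, while in the other 5 libraries miR-199-3p is the higher arm.

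Tissue specificity was moderate. The index tau, which is 0 for equal levels and 1 for a single tissue, was 0.705 for miR-199-3p, 0.726 for miR-214-3p and 0.830 for miR-199-5p, beside a median of 0.864 over the 132 arms that reached 100 RPM somewhere. The order of the libraries depended on the denominator, and with annotated reads it was the gonads that changed places. Annotated reads were 33.1% to 37.7% of the 18–25 nt reads in somatic libraries but 11.3% in ovaries and 2.58% in testes. They were only part of the reads that the paper called miRNAs, since it went on to looser matching. In reads per 1000000 annotated reads, miR-199-5p stood at 24271 in ovaries and 14320 in testes, next to 30366 in liver and above 9970 in slow muscle. On the same scale miR-214-3p was 4384 in ovaries and 4326 in slow muscle. miR-199-3p remained low in testes on this scale, at 2659 against 3385 in brain and 38756 in slow muscle. With the 1–35 nt total and with TMM scaling, somatic libraries changed places too. Heart then stood above liver for miR-199-3p, and intestine above eye for miR-214-3p (409 against 296 with 1–35 nt reads, 410 against 275 with TMM).

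The balance of the miR-199 arms turned over between tissues, and this measure does not depend on the library total. The 5p arm held 20.2% of miR-199 reads in intestine (interval 19.6 to 20.8), 20.5% in slow muscle (20.04 to 20.89), 22.8% in eye (22.1 to 23.6), 24.9% in heart (24.4 to 25.4) and 31.2% in brain (29.9 to 32.6). It held 55.5% in liver (54.9 to 56.1), 71.3% in ovaries (70.6 to 71.9) and 84.3% in testes (81.9 to 86.5). The intervals of the last 3 overlapped with no other library. Put as reads of 3p per read of 5p, the balance ran from 3.96 in intestine to 0.802 in liver and 0.186 in testes. Both gonad libraries lay above all 6 somatic libraries, with means of 77.8% and 29.2%. A two-sided exact permutation test over the 28 splits of 2 against 6 libraries gave p = 0.0357, the smallest it allows, and an adjusted p of 0.214 over the 6 measures tested. Of 18 miRNA numbers with at least 50 reads in every library, 3 (16.7%) had a 5p share that ranged over at least 50 percentage points. These were miR-130, miR-199 with 64.2 points and miR-455, and the median range was 8.82 points. How many of the 18 had both gonads outside the somatic range was not counted.

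**Figure D2:**
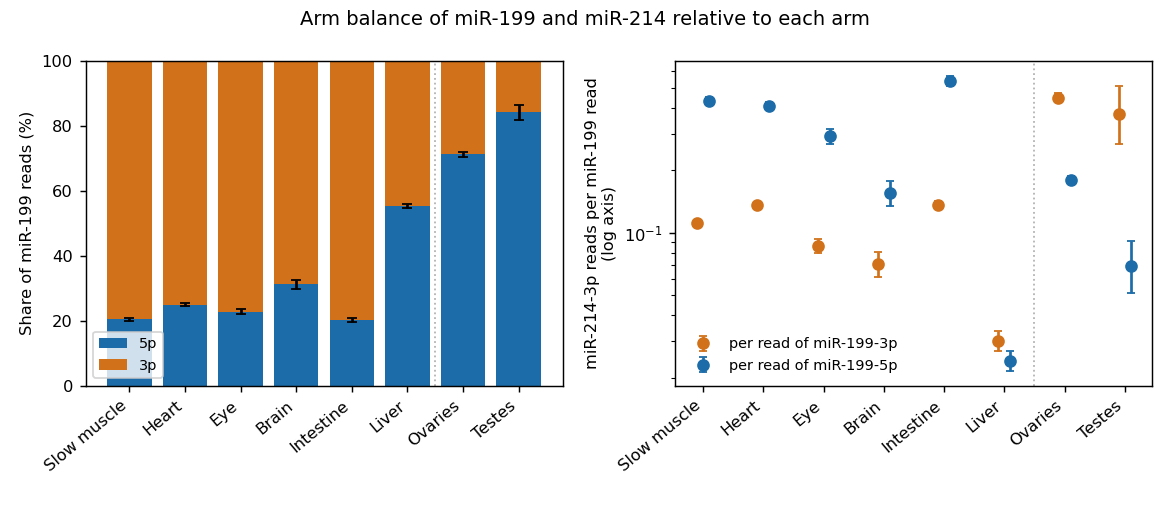
Left, share of the 5p and 3p arms among miR-199 reads in each library, with 95% Wilson intervals at the boundary; right, miR-214-3p reads per read of either miR-199 arm on a log axis, with exact 95% Clopper-Pearson intervals. The 5p share is 20.2% to 31.2% in 5 somatic libraries, 55.5% in liver and 71.3% and 84.3% in the gonads, and liver has the lowest miR-214-3p ratio to either arm.

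Relative to miR-199, miR-214 stood apart in liver. There were 0.0135 miR-214-3p reads per miR-199 read in liver (interval 0.0120 to 0.0150), against 0.0485 in brain, 0.0583 in testes, 0.0667 in eye, 0.0888 in slow muscle, 0.102 in heart, 0.109 in intestine and 0.129 in ovaries (0.123 to 0.134). Liver was lowest against either arm, with 0.0302 reads per miR-199-3p read and 0.0242 per miR-199-5p read. Among the other somatic libraries the ratio to miR-199-3p lay between 0.0705 in brain and 0.136 in intestine. In gonads it was 0.448 in ovaries and 0.372 in testes, above every somatic library, whereas the ratio to miR-199-5p was 0.181 and 0.0691, below slow muscle, heart, eye and intestine. How often the ratio of other pairs of arms sets both gonads apart was not counted. mir199-1 and mir214 are neighbours, while the main miR-199 sequences of both arms match all 3 torafugu miR-199 hairpins, so the ratio compares 1 hairpin with the sum of 3.

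In liver a large part of the miR-199-5p reads carried a different seed. The reads starting 1 nt upstream of the most common start made up 46.2% in liver (6138 of 13279 reads, interval 45.4 to 47.1). They made up 0.678% in slow muscle, 1.92% in testes, 2.15% in heart, 2.45% in eye, 2.98% in ovaries, 5.59% in intestine and 5.80% in brain (4.71 to 7.14). Liver lay far above the others, with no overlap of intervals. The upstream base was G in 6065 of these liver reads, as in the sequence printed above, and 45.6% of the liver reads of this arm were recorded under mir-199-3 and mir-199-2 together, the torafugu hairpins with that G. In the remaining libraries that share was 0.623% to 5.66%. The common form matches all 3 hairpins, so a change of start and a change in the share of the hairpins cannot be told apart.

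The upstream form was also the more uniform one at its 3′ end. In liver 86.3% of the reads with the upstream start (85.4 to 87.1) ended at the base of the most abundant form, against 68.3% of those with the common start (67.2 to 69.4). For the background, lettered names were counted apart. Among the 138 such names with at least 50 reads in liver, 3 (2.17%) had a share of reads off their most common start at least 10 percentage points above the median of the other libraries. The names mir-199-5p and mir-199a-5p were among them, and the third was mir-429-3p. The first pair share sequence, so they are not separate events. The median of these names in liver had 1.21% of its reads off the most common start. Over all libraries, 29 of 1054 pairs of name and library (2.75%) passed the same limit.

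**Figure D3:**
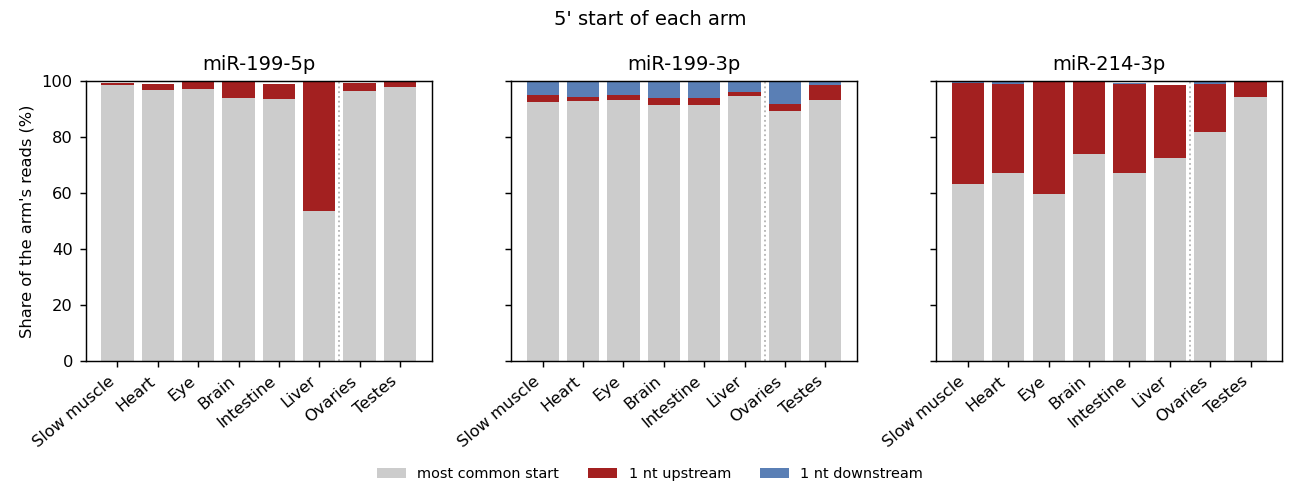
Share of each arm's reads that start at the most common 5′ position, 1 nt upstream or 1 nt downstream, by library. The upstream share of miR-199-5p is 46.2% in liver and at most 5.80% elsewhere, whereas that of miR-214-3p is highest in eye at 40.03%.

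The other arms kept their starts or varied in another way. In miR-199-3p the most common start held 89.4% to 94.8% of the reads in every library, with 4.02% in liver to 8.32% in ovaries starting 1 nt downstream (1.38%, or 2 reads, in testes). In miR-214-3p the upstream T was common in somatic libraries, at 40.03% in eye, 35.9% in slow muscle, 31.8% in intestine, 31.7% in heart, 26.4% in liver and 26.1% in brain. It was rarer in ovaries at 17.2% (15.8 to 18.8) and in testes at 5.56% (1.91 to 15.1, 3 of 54 reads). The ovary interval overlapped with no somatic library, and the lower interval bound of brain was 20.8%. How many other arms had a start share outside the somatic range in both gonads was not counted.

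At the 3′ end, more reads of miR-199-5p and miR-214-3p ran past the main form in gonads. Reads of miR-214-3p that ran past the end of the most abundant form were 72.5% in ovaries (70.6 to 74.2) and 79.6% in testes (67.1 to 88.2), against 24.3% in eye to 40.4% in liver (35.2 to 45.8) among somatic libraries. The mean length was 21.6 nt in ovaries and 21.5 nt in testes, and 20.5 to 21.1 nt in the others. For miR-199-5p the longer reads were 44.2% in ovaries (43.4 to 45.1) and 59.2% in testes (55.7 to 62.5), and 16.1% in liver to 21.8% in slow muscle. The mean length of miR-199-5p reads was 21.49 nt in ovaries, below the 21.55 nt in liver, and 21.71 nt in testes. miR-199-3p went the other way, with 12.2% in ovaries and 7.59% in testes against 13.96% to 20.25% in somatic libraries. For the background, lettered names were counted apart. Among the 56 such names with at least 50 reads in every library, 26.8% had a longer share above all somatic libraries in both gonads. Another 23.2% had one below, so gonad libraries outside the somatic range were common at this end.

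**Figure D4:**
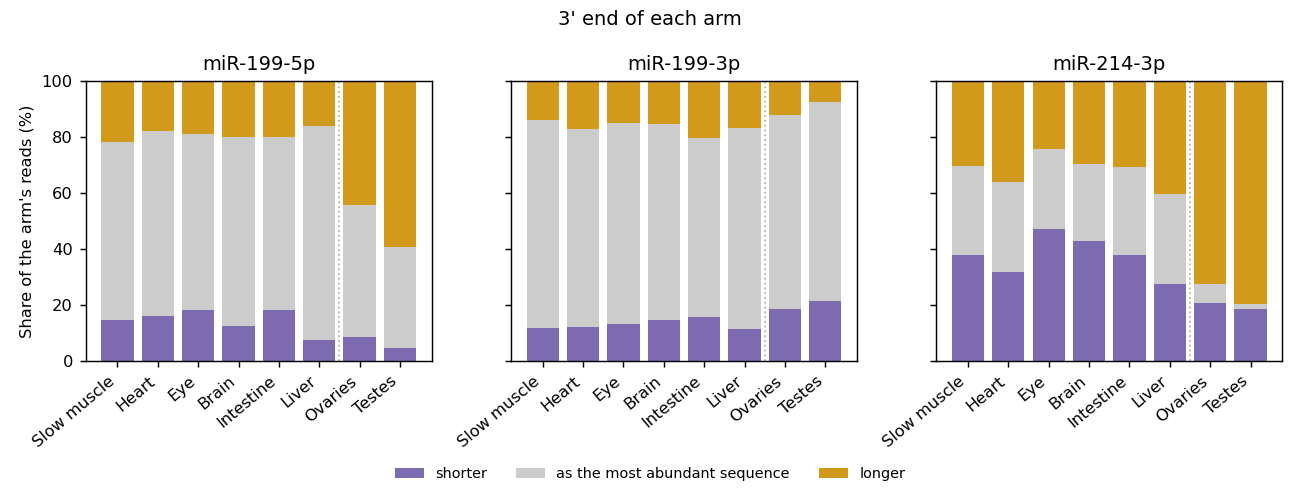
Share of each arm's reads that end before, at or past the 3′ end of the most abundant sequence, by library. Longer reads of miR-214-3p are 72.5% and 79.6% in ovaries and testes and 24.3% to 40.4% in somatic libraries. Those of miR-199-5p are also more common in both gonads than in any somatic library.

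The letter added at the end was not that of the torafugu hairpin alone. Of the miR-214-3p reads 1 nt longer than the main form, 1985 ended in A, recorded under the torafugu entry, and 2110 ended in T, recorded under entries of other species. T made up 42.3% in slow muscle (39.0 to 45.7), 46.8% in heart, 47.0% in eye, 50.7% in intestine, 57.6% in brain, 62.3% in liver (53.4 to 70.4), 59.1% in ovaries (56.6 to 61.6) and 55.0% in testes. Ovaries and slow muscle were apart by their intervals. In miR-199-3p, 73.0% of the reads longer by 1 nt ended in A, 24.6% in T and 2.35% in G. A was recorded under torafugu mir-199-3 and G under the other 2 torafugu hairpins, while the T reads lay under no torafugu entry. The tables list only sequences identical to part of some entry, so a base found in no entry would be missing here.

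Reads that matched only part of the hairpins gave a partial view of the copies. Of the miR-199-3p reads, 10689 lay on mir-199-3 alone, most of them with the extra A, which was 7.59% of the arm in testes, 8.07% in ovaries and 15.3% in intestine. Reads on mir-199-2 and mir-199-1 but not mir-199-3 were 1.13% of the arm in liver and 1.81% to 5.52% elsewhere. In miR-199-5p, reads on mir-199-1 alone, with the upstream bases T, AT or CAT, numbered 309 and were at most 1.10% of the arm in heart. Between 75.6% and 84.8% of the miR-199-3p reads and, outside liver, 90.8% to 95.5% of the miR-199-5p reads matched all 3 hairpins, so the contribution of each copy was not resolved.

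The ovary and testis libraries were compared by exact binomial tests of their reads over all 255 names, adjusted by the Benjamini-Hochberg method. These tests compare the libraries rather than the tissues. A name here is a miRNA number with an arm, or with its antisense or unplaced reads. The shares and medians over all names, here and for slow muscle against heart, are therefore not of arms alone. All 3 arms were higher in the ovary library. miR-214-3p stood at 495 against 25.5 RPM (ratio 19.4, interval 14.8 to 25.9), miR-199-3p at 1106 against 68.6 RPM (16.1, 13.7 to 19.2) and miR-199-5p at 2741 against 369 RPM (7.42, 6.90 to 7.99), each with an adjusted p of 4.81e-292 or less. The paper, which went on to looser matching, also listed miR-214-3p as putatively higher in ovaries, with a higher RPM in both gonads than here. The levels here cover the annotated reads alone. A name was called at a ratio of at least 1.5 and an adjusted p under 0.05, and 40.4% of all names were called higher in ovaries, with 8.24% higher in testes. The median ratio over the 154 names with reads in both was 3.01. Per annotated read the ratios were 4.43 for miR-214-3p, 3.68 for miR-199-3p and 1.69 for miR-199-5p, beside a median of 0.688. The intervals of miR-199-5p and miR-199-3p did not overlap, so the arms differed between these libraries by unequal factors. When only mature matches were counted, the ratios were 3.998 for miR-199-3p (adjusted p = 0.00526) and 7.29 for miR-199-5p, the reverse order. That setting leaves out 98.8% of the miR-199-3p reads. It rests on 4 reads in testes (1.89 RPM), next to the floor of 3. With TMM scaling all 3 ratios were lower, at 6.32 for miR-199-3p, 7.60 for miR-214-3p and 2.91 for miR-199-5p.

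The slow muscle library was compared with heart in the same way over 295 names. miR-199-3p was called higher in slow muscle, at 14593 against 8462 RPM (ratio 1.72, 1.69 to 1.76, adjusted p at the smallest value written, 1e-300). miR-214-3p (ratio 1.42, 1.35 to 1.49) and miR-199-5p (1.34, 1.29 to 1.38) were higher beyond counting error but under the 1.5-fold limit. Of all names, 21.4% were called higher in slow muscle and 19% higher in heart, and the median ratio was 0.989.

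For comparison, 14 arms of miRNAs known from smooth muscle, cartilage, connective tissue and vessel wall (miR-143, miR-145, miR-140, miR-455, miR-21, miR-22, miR-24, miR-29 and miR-126) were followed. In ovaries against testes 11 of the 14 were called higher in ovaries and 0 in testes, beside 40.4% and 8.24% of all names. miR-24-3p (ratio 18.8), miR-21-5p (18.3) and smooth-muscle miR-143-3p (17.3) had ratios close to miR-199-3p. miR-126-3p (3.09) and miR-22-3p (4.56) had lower ratios, and miR-140-3p (1.45), miR-29-3p (1.01) and miR-140-5p (0.866) had no call. Per annotated read, miR-126-3p (0.706), miR-140-3p (0.331), miR-29-3p (0.232) and miR-140-5p (0.198) were lower in ovaries, and the other listed arms were higher. In slow muscle against heart, 7 of the 14 arms were called higher in heart, led by miR-21-5p (89.4 against 910.2 RPM) and cartilage miR-140-3p (428 against 2855 RPM). Of the rest, 1 was called higher in slow muscle (miR-22-3p, ratio 1.60) and 6 had no call. Of all names, 19% were called higher in heart and 21.4% higher in slow muscle.

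The 2 gonad libraries were set against the 6 somatic libraries for the arm levels as well. The smallest p of this design (0.0357) becomes 0.214 for a single measure adjusted over 6, so the lack of a call carries no information. miR-199-3p averaged 587 RPM in gonads and 7253 RPM in somatic libraries (exact permutation p = 0.107, adjusted p = 0.321). It was the only one of the 3 arms with both gonads below every somatic library, as were 45.5% of the 132 arms with at least 100 RPM, and per annotated read none of the members did so, beside 13.6% of those arms. miR-199-5p averaged 1555 against 3506 RPM (exact permutation p = 0.500) and miR-214-3p 260.3 against 705 RPM (p = 0.321), with ranges that overlapped. The gonad minus somatic difference of miR-199-5p was -1951 RPM. It became -448 RPM without liver, -765 RPM without testes and -3137 RPM without ovaries, and it turned to 9542 per 1000000 annotated reads and to 1994 with TMM. That of miR-214-3p was -444 RPM, with -209 RPM without testes, -259 RPM without slow muscle and -679 RPM without ovaries, and it also turned positive with annotated reads (719.9) and TMM (155.6). A lower level in gonads and the lower share of miRNA among their reads cannot be told apart. In these bulk samples, fewer cells of a type and less RNA per cell cannot be told apart.

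The miR-199 arms moved together only in part. Pearson's r of log2(RPM + 1) over the 8 libraries was 0.870 between miR-199-3p and miR-214-3p, 0.753 between the miR-199 arms and 0.655 between miR-199-5p and miR-214-3p. Among the 129 other arms that reached 100 RPM somewhere, the 5 whose levels were most like the sum of the members were miR-30-3p (r = 0.905), miR-126-5p (0.870), miR-22-3p (0.869), miR-203-3p (0.855) and miR-126-3p (0.853). miR-126 is known from endothelium and miR-203 from skin epithelium. The median r over the 129 arms was 0.494, and the low miRNA content of the gonad libraries enters every r. With annotated reads as the total, 4 of the 5 remained and r was lower. It was 0.720 for miR-30-3p, 0.593 for miR-203-3p, 0.582 for miR-22-3p and 0.570 for miR-126-3p. Without brain only 1 of the first 5 remained among the 5 most similar, and on the RPM scale also 1.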

How the data were processed

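The authors made SOLiD small RNA libraries from total RNA, trimmed adaptors, kept 18–25 nt reads, collapsed identical reads and matched them to miRBase entries in CLC genomics workbench. The deposited values are raw read counts per distinct sequence, with 0 mismatches to the named entry. The tables hold the annotated reads only, so RPM used the 18–25 nt totals given by the study (1204477 to 4760693 reads). Reads were summed by miRNA number and arm. Precursor-only sequences were placed on an arm where at least 14 nt overlapped (at most 2 mismatches, ends shifted by 6 nt or less), taking mature sequences with at least 10 reads. Reads matching the opposite strand were kept apart. Starts and ends were counted from the most abundant sequence of the arm, in libraries with at least 50 of its reads.

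Libraries were grouped by tissue label. The named miRNAs are all member names by arm, the comparison list, and the 5 most similar arms. The members and lists were chosen with earlier results of these data known. The design planned 4 arms, but miR-214-5p had no mature reads and 3 were used. Alternatives changed the total (annotated reads, 1–35 nt reads, edgeR TMM), the match types, minimum counts and the libraries included. Python 3.11.15, scipy 1.17.1, pandas 2.3.3 and edgeR 4.0.16 were used. Sequences with 1 read were kept.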

Additional observations from a re-analysis of the deposited data

Results flagged for a closer look

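Among 18 sets of 6 somatic values (arm levels, shares, starts and ends), 3 had a library set apart by Dixon's 95% criterion. For draws from a normal distribution about 1 set in 20 would pass, but values of different tissues are not such draws. How many other arms had a library set apart was not counted, so whether 3 of 18 is unusual is not known. All 3 were liver and concern miR-199-5p, so they are not separate events. The level of miR-199-5p was 11025 RPM in liver, with slow muscle next at 3754 RPM. The 5p share of miR-199 reads was 55.5% in liver, with brain next at 31.2%. The share of miR-199-5p reads starting 1 nt upstream was 46.2% in liver, with brain next at 5.80%.

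Reads antisense to miR-199-3p were recorded under the miR-199 hairpins and entered no comparison. They numbered 110 in all, of which 83 were the exact complement of the main miR-199-3p form, printed here to show the strand.
antisense to miR-199-3p: taaccaatgtgcagactactgt
They were above the limit of 3 reads in 6 libraries, with 39 reads in heart, 31 in liver, 17 in brain, 7 in testes, 6 in slow muscle and 6 in intestine. Eye and ovaries had 2 each. As a share of sense and antisense reads this was 4.61% in testes (95% Wilson interval 2.25 to 9.20), 0.537% in brain (0.336 to 0.859), 0.290% in liver, 0.182% in heart and 0.0214% in slow muscle (0.00979 to 0.0466).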

How the results depend on the processing

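The match types counted decided the arm balance. With mature matches only, the lowest and highest 5p share of miR-199 became 94.1% (intestine) and 99.7% (ovaries), and with sequences identical to a mature entry 97.2% and 100%, because nearly all miR-199-3p reads are then left out. The lowest and highest ratio of miR-214 to miR-199 became 0.0239 (liver) and 0.505 (intestine) with mature matches and 0.198 (testes) and 2.66 (intestine) with identical ones. The gonad minus somatic difference of that ratio turned to -0.170 and -1.08 in these settings. Over the leave-one-out fits it ran from -0.0131 (without ovaries) to 0.0573. With annotated reads as the total the gonad minus somatic difference of miR-199-5p reversed to 9542 and that of miR-214-3p to 719.9, and with TMM to 1994 and 155.6. With identical matches that of miR-199-5p was 20.2 RPM.

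With identical matches the ovary to testis ratio of miR-199-3p was at least 1.48 against the 3-read floor (adjusted p = 0.0570), names called fell from 124 to 56, and slow muscle over heart for miR-199-5p was called at 1.80. Names called in slow muscle against heart fell from 119 to 77 with mature and 64 with identical matches. Neighbouring libraries not apart numbered 2, and 0 with the 1–35 nt total, 4 with mature and 8 with identical matches. Of the 5 most similar names, 3 remained with TMM, 1 on the RPM scale and 1 without brain. The liver share with the upstream start moved within its interval. Arm levels stayed within their intervals in 24 of 24 cases without sequences of several miRNAs, where only 1 read was left out. They did so in 21 of 24 cases with at least 10 reads per sequence and in 12 of 24 with mature matches only. The count was 0 of 24 with identical matches, either other read total or TMM. For the totals and TMM that 0 reflects the rescaling of every level. No paired analysis was possible because each tissue has 1 library. Depth limits testes most, with 54 miR-214-3p reads.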
